A study of Homo sapiens with 9 samples.

Results

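Interleukin 1 cytokines and their receptor were followed through 5 genes, IL1A, IL1B, IL18, IL1R1 and IL1RAP, in hCMEC/D3 cells. They were found by their symbols among the 15570 genes of the deposited table, and all 5 passed the filter on low values. They were chosen by their FPKM and their differences between the 3 groups in these same libraries, so their levels and differences are described here without a p-value. hCMEC/D3 is 1 immortalised human line of brain microvascular endothelium, grown in culture to model the barrier between blood and brain.

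The study measured RNA in 9 libraries of this line, 3 in each group. The OGD/R group had 4 h without oxygen and glucose and then 16 h in normal medium under 21% O2 and 5% CO2. The OGD group was taken at the end of 4 h without glucose in a chamber filled with 95% N2 and 5% CO2. The control group had neither treatment. All values are FPKM (fragments scaled to transcript length and library size), which allows levels of different genes to be compared per length. Read depth is not known, which leaves counting error out of reach, and nothing states that replicates came from separate cultures. In bulk RNA, fewer expressing cells and less RNA per cell cannot be told apart. As a whole the libraries shifted between groups. The median log2 difference of the 10818 genes tested was -0.31 in OGD against control, 0.39 in OGD/R against OGD and 0.07 in OGD/R against control. A relative difference below is a log2 difference minus this median. Of 14 endothelial marker genes in a list, 13 were in the table and 7 of them stayed below 1 FPKM in all 9 libraries, among them VWF (at most 0.0881 FPKM), CLDN5 (at most 0.101 FPKM) and KDR (at most 0.0175 FPKM). The summed level of the 13 genes was 47.9 to 53.3 FPKM in OGD/R, 13.6 to 16.2 FPKM in OGD and 27.5 to 32.9 FPKM in control. ENG, the TGF-beta co-receptor endoglin, made up most of it in OGD/R (30.3 to 38.0 FPKM).

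IL-1 alpha and IL-1 beta are inflammatory cytokines that bind the same receptor, IL1R1, which signals together with the accessory protein IL1RAP through the adaptor MYD88 and IRAK kinases to NF-kB. IL-1 beta and IL-18 are made as precursors that caspase-1, activated in inflammasomes, cuts to the active form, whereas the IL-1 alpha precursor is itself active. In brain endothelium IL-1 is known to induce adhesion molecules and chemokines and to loosen the barrier.

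IL1A and IL1B are neighbours on chromosome 2 and were both highest in OGD, so the sequences around their transcription starts are shown here. They come from RefSeq (GRCh38.p14), run 5′ to 3′ along the minus strand, and cover 250 bases before to 50 bases after the start. The IL1A window is chr2:112784444-112784743 and the IL1B window is chr2:112836730-112837029. Capitals mark matches to 5 short motifs searched on both strands.
IL1A: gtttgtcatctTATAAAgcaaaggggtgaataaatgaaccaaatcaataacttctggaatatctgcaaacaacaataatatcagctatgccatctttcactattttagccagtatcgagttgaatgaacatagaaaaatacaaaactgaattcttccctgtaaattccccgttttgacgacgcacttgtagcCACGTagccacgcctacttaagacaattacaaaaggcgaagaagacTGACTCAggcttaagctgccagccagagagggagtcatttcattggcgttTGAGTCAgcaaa
IL1B: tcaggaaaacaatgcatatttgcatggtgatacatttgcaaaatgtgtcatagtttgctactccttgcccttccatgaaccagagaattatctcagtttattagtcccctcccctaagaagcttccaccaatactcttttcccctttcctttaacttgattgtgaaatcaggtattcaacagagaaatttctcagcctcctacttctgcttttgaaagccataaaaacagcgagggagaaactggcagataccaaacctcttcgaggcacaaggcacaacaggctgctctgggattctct

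The AP-1 motif TGANTCA matched 2 times in the IL1A window, from bases -12 and 39 relative to the start, and is present in 7.71% of all 35116 RefSeq windows of 300 bases. The HIF core ACGTG matched once, from base -58 (21.4% of windows). TATAAA matched once, from base -239 (11.5% of windows). GGGA followed by any 4 bases and CC, a loose form of the NF-kB motif, and TGATGNAA, the ATF4 and C/EBP composite, are present in 25.6% and 3.62% of windows and matched neither gene. A second IL1A start, whose window overlaps the one shown, had the same AP-1 and HIF core counts and no TATAAA. The IL1B window held none of the 5 motifs. The windows of IL1R1 (4 starts) held 1 match to the NF-kB form, 1 to the HIF core and 2 to TATAAA, and that of IL1RAP (1 start) held 2 to the NF-kB form. Neither gene had a match to TGANTCA or TGATGNAA. These are matches of letters and not measured binding, and a window without a match says only that these letters are absent from it.

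IL1B, which encodes the IL-1 beta precursor, was the highest of the 5 genes in every library. IL1B (NCBI Gene 3553, GRCh38 chromosome 2, 112829751 to 112836779, minus strand) read 73.2, 79.5 and 71.7 FPKM in OGD/R replicates 1 to 3. It read 139, 142 and 134 FPKM in OGD and 24.5, 28.6 and 27.0 FPKM in control. The 3 groups did not overlap, with OGD highest, OGD/R between and control lowest. The means were 74.8 ± 4.15 FPKM in OGD/R, 138 ± 4.17 FPKM in OGD and 26.7 ± 2.03 FPKM in control (SD, n = 3 each), which is 2.80 times the control mean in OGD/R and 5.17 times in OGD. The log2 difference was 2.33 (SE 0.09) in OGD against control, -0.88 (SE 0.09) in OGD/R against OGD and 1.45 (SE 0.09) in OGD/R against control. Among the genes tested, IL1B ranked 999 to 1066 from the highest in the OGD/R libraries, 577 to 615 in OGD and 2646 to 3134 in control.

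IL1A, the gene of IL-1 alpha, showed the same order in OGD and control at a lower level. IL1A (NCBI Gene 3552, chromosome 2, 112773925 to 112784493, minus strand) read 1.81, 2.52 and 2.36 FPKM in OGD/R, 6.33, 6.32 and 6.91 FPKM in OGD, and 1.46, 1.82 and 1.96 FPKM in control. The OGD libraries stood above all others, while OGD/R and control overlapped. The means were 2.23 ± 0.371 FPKM in OGD/R, 6.52 ± 0.338 FPKM in OGD and 1.75 ± 0.255 FPKM in control (SD, n = 3 each). The log2 difference was 1.46 (SE 0.13) in OGD against control, -1.23 (SE 0.13) in OGD/R against OGD and 0.23 (SE 0.13) in OGD/R against control. Within its library IL1A stood at the 9.93rd to 12.6th percentile of tested genes in OGD/R, the 45.2nd to 48.4th in OGD and the 7.0th to 14.4th in control.

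The pair separated after reoxygenation, where IL1A overlapped control and IL1B did not. The ratio of IL1B to IL1A within a library averaged 34.1 ± 5.48 in OGD/R, 21.3 ± 1.68 in OGD and 15.4 ± 1.49 in control (SD, n = 3 each). Its values were 40.4, 31.6 and 30.4 in OGD/R, 22.0, 22.4 and 19.3 in OGD, and 16.8, 15.7 and 13.8 in control, with no overlap between groups. A ratio within a library does not depend on how libraries are scaled to each other, but it shows unequal change and not which gene moved.

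IL18, the gene of the related cytokine IL-18, stayed close to 1 FPKM. IL18 (NCBI Gene 3606, chromosome 11, 112143260 to 112164094, minus strand) read 0.936, 0.560 and 0.782 FPKM in OGD/R, 0.992, 1.10 and 0.957 FPKM in OGD, and 1.11, 1.15 and 0.983 FPKM in control. OGD/R lay below the other groups and OGD overlapped control. The log2 difference was -0.05 (SE 0.13) in OGD against control (0.16 with median-of-ratios scaling, 0.25 with quantile normalization), -0.20 (SE 0.13) in OGD/R against OGD (-0.43 and -0.65 so treated, and -0.09 with the length trend removed) and -0.25 (SE 0.13) in OGD/R against control (-0.40 with quantile normalization and -0.11 with the length trend removed). By rank the groups did not overlap, with IL18 at the 0.545th to 2.06th percentile of tested genes in OGD/R, the 7.88th to 9.71st in OGD and the 3.99th to 5.67th in control. IL18 reached 1 FPKM in only 3 of 9 libraries, the smallest number that passes the filter, and log2(FPKM + 1) understates changes at this level.

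**Figure D1:**
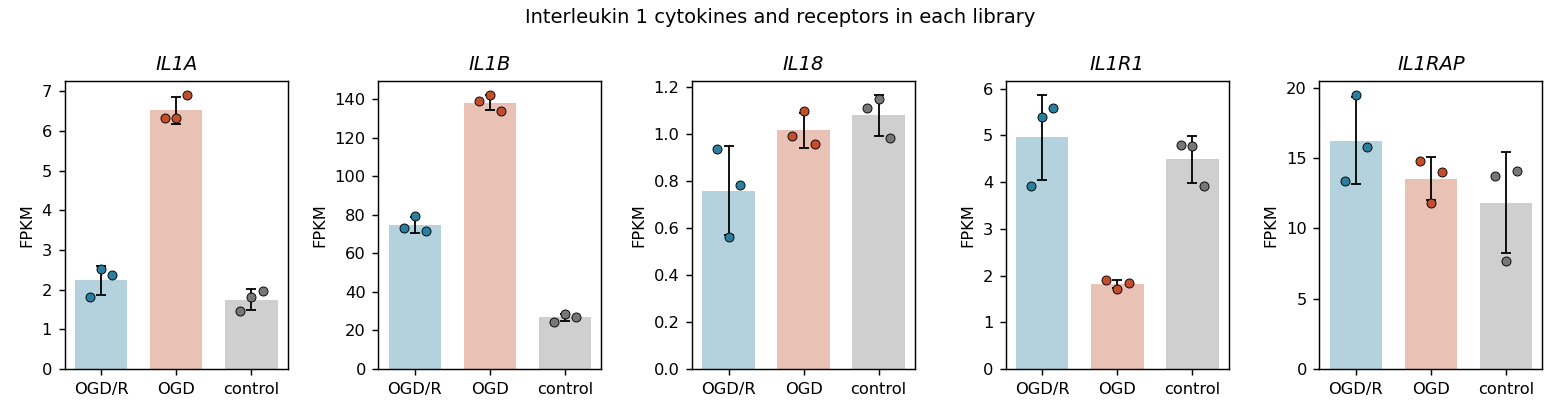
FPKM (y axis, from 0) of the 5 genes in each library; bars are means of 3 libraries, error bars 1 SD and points single libraries. IL1A (6.32 to 6.91 FPKM) and IL1B (134 to 142 FPKM) are highest in OGD, IL1R1 is lowest there (1.72 to 1.90 FPKM), and IL1RAP overlaps between all groups.

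IL1R1, the ligand-binding chain of the receptor, was lowest in OGD, where both ligands were highest. IL1R1 (NCBI Gene 3554, chromosome 2, 102070390 to 102179874, plus strand, overlapping the antisense gene IL1R1-AS1) read 3.92, 5.39 and 5.58 FPKM in OGD/R, 1.90, 1.72 and 1.84 FPKM in OGD, and 4.80, 4.77 and 3.91 FPKM in control. The OGD libraries were below all others, and OGD/R overlapped control. The means were 4.96 ± 0.907 FPKM in OGD/R, 1.82 ± 0.0953 FPKM in OGD and 4.49 ± 0.505 FPKM in control (SD, n = 3 each). The log2 difference was -0.96 (SE 0.14) in OGD against control, 1.07 (SE 0.14) in OGD/R against OGD and 0.11 (SE 0.14) in OGD/R against control (-0.09 after quantile normalization and -0.10 with the length trend removed). After subtracting the median of all genes the first was -0.65 and the second 0.68. The longest IL1R1 transcript has 5143 bases, and with the trend of the differences on transcript length removed the differences were -0.56 in OGD against control and 0.46 in OGD/R against OGD. By rank within a library IL1R1 stood at the 24.3rd to 30.5th percentile in OGD/R, the 17.1st to 18.5th in OGD and the 28.6th to 30.8th in control.

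IL1RAP, the accessory chain that IL1R1 needs for signalling, did not separate the groups by its FPKM. IL1RAP (NCBI Gene 3556, chromosome 3, 190514085 to 190659750, plus strand, overlapping the pseudogenes GCNT1P3 and RN7SKP296) read 13.4, 19.5 and 15.8 FPKM in OGD/R, 14.8, 11.8 and 14.0 FPKM in OGD, and 13.7, 7.67 and 14.1 FPKM in control. All 3 groups overlapped, and control replicate 2 lay below the other 8 libraries. The log2 difference in OGD against control was 0.22 (SE 0.20), and -0.04 without control replicate 2, but 0.58, 0.56 and 0.62 under median-of-ratios scaling, quantile normalization and removal of the length trend. It was 0.24 (SE 0.20) in OGD/R against OGD, but -0.22, -0.19 and -0.39 under the same alternatives. In OGD/R against control it was 0.46 (SE 0.20), and 0.20 without control replicate 2. By rank it stood at the 57.4th to 63.9th percentile in OGD/R, the 61.3rd to 65.5th in OGD and the 42.9th to 60.6th in control, where OGD and control do not overlap. IL1RAP exceeded IL1R1 in every library. The ratio of IL1RAP to IL1R1 averaged 3.29 ± 0.410 in OGD/R, 7.41 ± 0.481 in OGD and 2.68 ± 1.0 in control (SD, n = 3 each), and the OGD values (6.86 to 7.78) did not overlap those of the other groups (1.61 to 3.62).

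**Figure D2:**
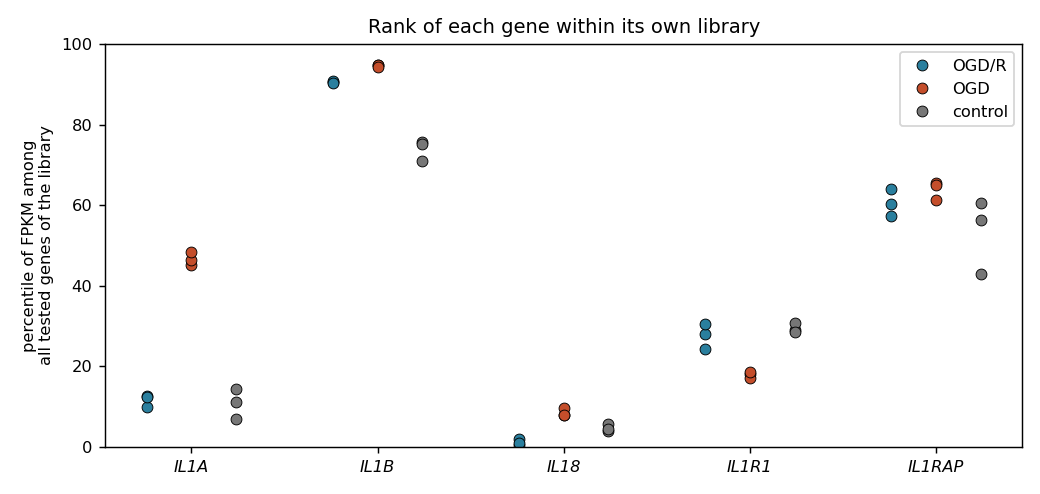
Percentile of each gene's FPKM among the 10818 tested genes of the same library (y axis), 1 point per library. IL1A stands at the 45.2nd to 48.4th percentile in OGD and at most at the 14.4th in OGD/R and control, IL1B is above the 90th percentile in OGD/R and OGD, and IL1R1 is lowest in OGD.

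Set against all genes, 2 of the 5 were past the threshold of the fit upwards in OGD against control (IL1A and IL1B), beside 11.3% of all genes tested, and 1 downwards (IL1R1), beside 46.7%. Against OGD, the OGD/R libraries had 1 past it upwards (IL1R1), beside 53.3%, and 2 downwards (IL1A and IL1B), beside 17.4%. Against control they had 1 past it upwards (IL1B), beside 24.7%, and 0 downwards, beside 16.5%. The threshold was an adjusted p of 0.05 in limma. The split of all genes depended on scaling: 1218 were higher and 5054 lower in OGD against control, but 2930 and 2422 under median-of-ratios scaling, with 5770 and 1878 in OGD/R against OGD (3432 and 3783 so scaled) and 2673 and 1787 in OGD/R against control (2342 and 2550 so scaled). IL1A, IL1B and IL1R1 kept their direction in OGD against control and in OGD/R against OGD under each of the 3 scaling alternatives. By libraries that did not overlap, 2 were higher and 1 lower in OGD against control (13.2% and 51.8% of all genes), 1 higher and 3 lower in OGD/R against OGD (57.8% and 20.4%), and 1 higher and 1 lower in OGD/R against control (28.5% and 19.3%). The genes were chosen with these comparisons in view, and the comparisons share libraries in pairs, so nothing is read from these counts.

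Most other ligand and receptor genes of the family read below 1 FPKM in every library, with SIGIRR and IL18BP as the exceptions. IL1RN, the secreted antagonist of the receptor, read at most 0.405 FPKM and was listed at 0 in 4 of 9 libraries. The decoy receptor gene IL1R2 was listed at 0 in 8 libraries and at 0.05 FPKM in control replicate 3. IL33, a related alarmin, reached at most 0.122 FPKM, IL18R1, a chain of the IL-18 receptor, 0.0470 FPKM, and IL1RL1, the IL-33 receptor, 0.0113 FPKM. Of 17 further ligand, antagonist and receptor genes in 2 lists, 13 were in the table and 2 passed the filter. SIGIRR, an inhibitory receptor of the family, was not called in any comparison (20.0 ± 2.47 FPKM in OGD/R, 20.2 ± 3.12 FPKM in OGD and 17.8 ± 4.70 FPKM in control, adjusted p from 0.348 to 0.972 in limma). After median-of-ratios scaling SIGIRR was called higher in OGD than in control (adjusted p = 0.0219) and lower in OGD/R than in OGD (adjusted p = 0.0327).

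IL18BP, a secreted protein that binds and blocks IL-18, was highest in OGD/R. It read 2.0, 2.17 and 1.72 FPKM in OGD/R, 0.288, 0.384 and 0.339 FPKM in OGD, and 0.405, 0.293 and 0.585 FPKM in control. All OGD/R libraries lay above the others. IL18BP passed the filter only through its OGD/R libraries, the group where it is high, so its log2 differences of 1.15 against OGD (SE 0.13) and 1.06 against control (SE 0.13) are given without a p-value. IL18BP overlaps NUMA1 on the genome, and NUMA1 moved the same way (12.7 ± 2.03 FPKM in OGD/R, 2.09 ± 0.642 FPKM in OGD and 4.67 ± 1.18 FPKM in control). Whether strand was used in counting is not given in the sources used here, and the part of NUMA1 reads in the IL18BP values was not tested.

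Levels differed widely among the genes that sense danger, process the precursors and release them. NLRP3, the best known inflammasome sensor, read at most 0.181 FPKM and AIM2 at most 0.0408 FPKM, whereas NLRP1, another sensor, averaged 5.35 ± 1.19 FPKM in OGD/R, 3.18 ± 0.286 FPKM in OGD and 3.2 ± 0.141 FPKM in control (SD, n = 3 each). CASP1, the protease that cuts pro-IL-1 beta, read 58.7, 62.0 and 55.9 FPKM in OGD/R, 55.8, 50.2 and 57.6 FPKM in OGD, and 76.9, 84.9 and 96.6 FPKM in control. CASP1 was below control in every treated library. It fell in OGD against control (log2 difference -0.65, SE 0.10, adjusted p = 0.000253 in limma), which did not hold under median-of-ratios scaling (adjusted p = 0.0805), and in OGD/R against control (-0.54, SE 0.10, adjusted p = 0.00121). The ratio of IL1B to CASP1 averaged 1.27 ± 0.0199 in OGD/R, 2.55 ± 0.254 in OGD and 0.312 ± 0.0288 in control (SD, n = 3 each).

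CASP4, the inflammatory caspase of the non-canonical inflammasome, was highest in OGD, like IL1B. It read 117, 119 and 117 FPKM in OGD/R, 208, 217 and 227 FPKM in OGD, and 156, 134 and 157 FPKM in control, with no overlap between groups. It rose in OGD against control (log2 difference 0.54, SE 0.09, adjusted p = 0.000321) and fell in OGD/R against OGD (-0.88, SE 0.09, adjusted p = 3.08e-06) and against control (-0.33, SE 0.09, adjusted p = 0.00869), under each of the 3 scaling alternatives as well. CASP1, CASP4, CASP5 and CARD16 are close copies in 1 gene cluster and may share reads.

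PYCARD, the adaptor ASC that links sensors to caspase-1, averaged 13.3 ± 1.99 FPKM in OGD/R, 15 ± 1.15 FPKM in OGD and 19.7 ± 2.03 FPKM in control (SD, n = 3 each). It fell in OGD/R against control (adjusted p = 0.00468, or 0.0559 with the length trend removed). Its fall in OGD against control (adjusted p = 0.0237) did not hold under median-of-ratios scaling (adjusted p = 0.973) or quantile normalization (adjusted p = 0.776), nor with OGD replicate 2 (adjusted p = 0.0992) or control replicate 3 (adjusted p = 0.0735) left out. GSDMD, the pore protein through which mature IL-1 beta leaves cells, averaged 27.1 ± 2.49 FPKM in OGD/R, 23.5 ± 1.54 FPKM in OGD and 33.9 ± 4.97 FPKM in control. It fell in OGD against control (adjusted p = 0.00320), a call lost after each of the 3 scaling alternatives (adjusted p from 0.0594 to 0.303). In OGD/R against control GSDMD was not called (adjusted p = 0.0513). It was called lower there under each of the 3 scaling alternatives (adjusted p from 0.00551 to 0.0263). CAPN1, the calpain subunit that can cleave pro-IL-1 alpha, averaged 33.3 ± 3.12 FPKM in OGD/R, 11.4 ± 0.286 FPKM in OGD and 23.9 ± 6.11 FPKM in control. It fell in OGD against control (log2 difference -0.98, SE 0.15, adjusted p = 0.000270) and rose in OGD/R against OGD (1.47, SE 0.15, adjusted p = 4.30e-06). NEK7, a kinase that licenses NLRP3, fell in OGD against control (31.3 ± 3.03 FPKM in OGD, 58.8 ± 8.44 FPKM in control, adjusted p = 0.000253), as did CASP8 (15.4 ± 1.34 FPKM in OGD, 30.3 ± 8.41 FPKM in control, adjusted p = 0.00115), the initiator caspase of death receptors.

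As a list, 16 of 22 inflammasome, processing and release genes were tested. In OGD against control 1 was higher and 9 of 16 lower, beside 11.3% and 46.7% of all genes (median log2 difference -0.33, beside -0.31 for all genes). Under median-of-ratios scaling 5 were higher and 3 lower, beside 2930 and 2422 of all 10818 genes so scaled. After reoxygenation, 8 were higher and 2 lower than in OGD, beside 53.3% and 17.4% (median 0.27, beside 0.39). Under median-of-ratios scaling 3 were higher and 8 lower, beside 3432 and 3783 of all genes. Without OGD/R replicate 2 the 8 and 2 became 5 and 3. Set against control, OGD/R had 4 higher and 6 lower, beside 24.7% and 16.5% (median -0.20, beside 0.07). Under median-of-ratios scaling 3 were higher and 9 lower, beside 2342 and 2550 of all genes. The 4 higher became 1 without OGD/R replicate 2 or control replicate 3, and 2 without OGD/R replicate 3, OGD replicate 3 or control replicate 2. With the replicate number as a block, 2 were higher and 6 lower.

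MYD88, the adaptor on which the receptor pair depends, moved like IL1R1. It read 34.9, 43.2 and 35.4 FPKM in OGD/R, 13.3, 13.2 and 12.9 FPKM in OGD, and 31.9, 28.3 and 26.9 FPKM in control, with no overlap between groups. It fell in OGD against control (log2 difference -1.08, SE 0.11, adjusted p = 1.37e-05) and rose in OGD/R against OGD (1.45, SE 0.11, adjusted p = 3.97e-07), and both calls held under each of the 3 scaling alternatives. Its rise in OGD/R against control (0.37, SE 0.11, adjusted p = 0.0149) was lost without OGD/R replicate 2 (adjusted p = 0.0592).

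IRAK2, a kinase recruited after MYD88, averaged 6.78 ± 1.18 FPKM in OGD/R, 3.17 ± 0.654 FPKM in OGD and 2.95 ± 0.365 FPKM in control (SD, n = 3 each). It rose in OGD/R against control (log2 difference 0.97, SE 0.16, adjusted p = 0.000590) and against OGD (0.90, SE 0.16, adjusted p = 0.000290, or 0.0525 after quantile normalization). IRAK1, which acts in the same complex, averaged 66.2 ± 5.27 FPKM in OGD/R, 51.3 ± 0.677 FPKM in OGD and 46.5 ± 5.97 FPKM in control and rose in OGD/R against control (adjusted p = 0.00196). TAB2, which links TRAF6 to the kinase TAK1, fell in OGD against control (log2 difference -0.82, SE 0.15, adjusted p = 0.000711), as did the kinase gene MAP3K3 (-0.89, SE 0.17, adjusted p = 0.00102). TOLLIP, which dampens IRAK1, was not called in any comparison (adjusted p from 0.112 to 0.674).

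Of 21 receptor-proximal signalling genes 19 were tested. In OGD against control 0 were higher and 9 of 19 lower, beside 11.3% and 46.7% of all genes (median log2 difference -0.35, beside -0.31 for all genes). Under median-of-ratios scaling 3 were higher and 4 lower, beside 2930 and 2422 of all 10818 genes so scaled. Against OGD, 13 were higher in OGD/R and 1 lower, beside 53.3% and 17.4% (median 0.47, beside 0.39). Under that scaling 8 were higher and 3 lower, beside 3432 and 3783 of all genes. Against control, 4 were higher in OGD/R and 1 lower, beside 24.7% and 16.5% (median 0.17, beside 0.07). Under median-of-ratios scaling 4 were higher and 3 lower, beside 2342 and 2550 of all genes. The 4 and 1 became 7 and 1 without control replicate 1, and 4 and 3 without control replicate 3.

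**Figure D3:**
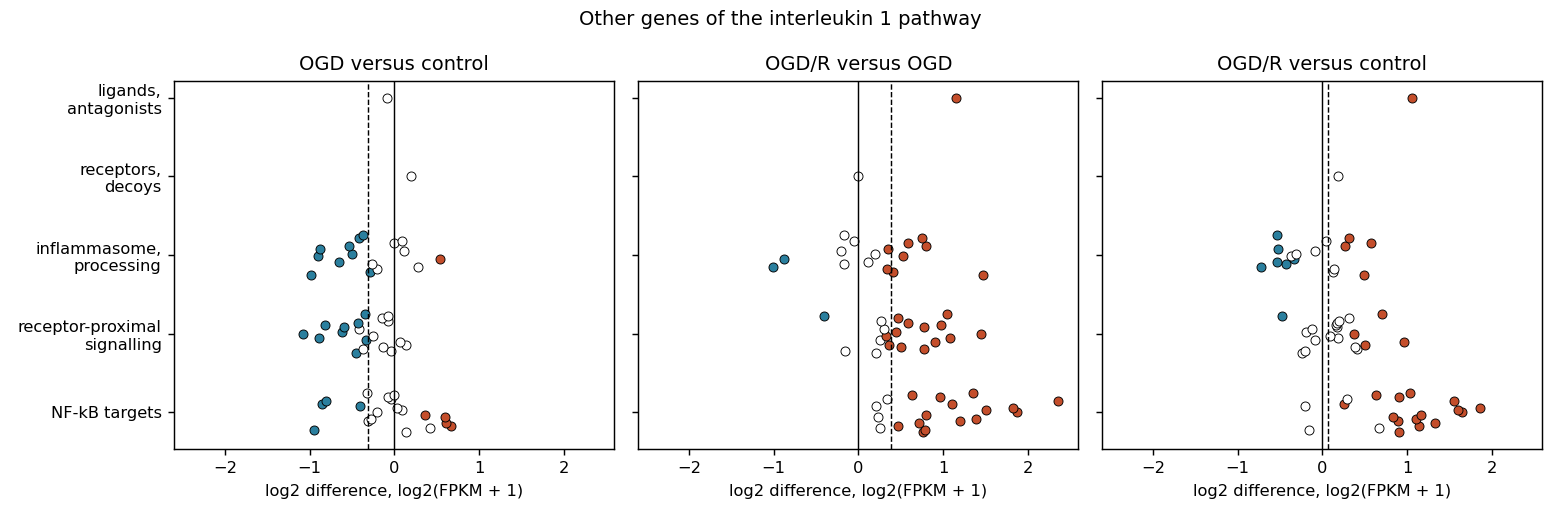
Log2 differences on the log2(FPKM + 1) scale (x axis) of the tested genes of 5 pathway lists (rows), 1 point per gene. Red points were called higher, blue points lower and white points not called. The solid line marks 0 and the dashed line the median of all genes (-0.31, 0.39 and 0.07). NF-kB targets lie mostly to the right of it in both OGD/R panels. In each, 15 of 19 were called higher, beside 53.3% of all genes against OGD and 24.7% against control. TRAF1, CXCL3 and IL18BP would not have passed the filter without their OGD/R libraries.

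Known NF-kB targets of IL-1 receptor signalling, which other stimuli also induce, were split in OGD and higher in OGD/R. In OGD against control 4 of 19 were higher (CXCL8, CXCL3, CSF2 and CSF3) and 4 lower (NFKBIA, NFKBIZ, MAP3K8 and CCL2), beside 11.3% and 46.7% of all genes, with a median log2 difference of -0.04 beside -0.31 for all genes. After quantile normalization 8 were higher and 3 lower, beside 2166 and 2427 of all 10818 genes so treated. After median-of-ratios scaling these were 7 and 3, beside 2930 and 2422. The OGD/R libraries had 15 higher and 0 lower than OGD, beside 53.3% and 17.4% of all genes (median 0.80, beside 0.39). Under the 3 scaling alternatives 12 to 14 were higher and 0 to 1 lower, beside 3292 to 3432 and 3173 to 3783 of all genes. The OGD/R libraries also had 15 higher and 0 lower than control, beside 24.7% and 16.5% of all genes (median 0.90, beside 0.07). Under those alternatives 14 to 16 were higher and 1 lower, beside 2291 to 2394 and 2497 to 2550 of all genes. Both OGD/R comparisons use the same OGD/R libraries. TRAF1 and CXCL3, which are in these counts, would not have passed the filter without their OGD/R libraries.

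IL6, an inflammatory cytokine, read 113, 145 and 124 FPKM in OGD/R, 41.5, 47.0 and 43.5 FPKM in OGD, and 45.9, 39.6 and 38.7 FPKM in control. It rose in OGD/R against OGD (log2 difference 1.51, SE 0.11, adjusted p = 3.25e-07) and was not called in OGD against control (0.09, SE 0.11, adjusted p = 0.491), though it was after median-of-ratios scaling (adjusted p = 0.00138). ICAM1, which holds leukocytes to endothelium, read 70.4, 81.4 and 74.0 FPKM in OGD/R, 19.9, 19.9 and 19.8 FPKM in OGD, and 25.1, 21.8 and 23.0 FPKM in control. It rose in OGD/R against OGD (1.87, SE 0.09, adjusted p = 3.58e-08) and against control (1.65, SE 0.09, adjusted p = 2.54e-06). In OGD against control ICAM1 was not called (-0.21, adjusted p = 0.0572), and its difference was 0.05 to 0.15 under the 3 scaling alternatives. With no filter ICAM1 was called lower there (adjusted p = 0.0443). The same held without OGD/R replicate 2 (adjusted p = 0.0450) or control replicate 2 (adjusted p = 0.0334). In the OGD libraries IL6 overlapped control. Of the 19 targets tested, 4 were called higher and 4 lower there than in control, beside 11.3% and 46.7% of all genes. Under median-of-ratios scaling these were 7 and 3, beside 2930 and 2422 of all genes. A link between the level of IL1B and these genes was not tested.

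CXCL8, the neutrophil chemokine IL-8, rose in OGD/R against OGD (88.5 ± 13.8 FPKM in OGD/R, 50 ± 2.33 FPKM in OGD, log2 difference 0.80, adjusted p = 6.46e-05). Its level in control was 38.7 ± 3.67 FPKM. The call for CXCL8 in OGD against control (0.36, adjusted p = 0.0184) needed both OGD replicate 1 (adjusted p = 0.0636 when left out) and control replicate 3 (adjusted p = 0.0562 when left out). NFKBIA, which encodes the NF-kB inhibitor I-kappa-B-alpha, averaged 46.1 ± 3.70 FPKM in OGD/R, 20.7 ± 0.407 FPKM in OGD and 38.2 ± 2.96 FPKM in control (SD, n = 3 each). It fell in OGD against control (log2 difference -0.85, SE 0.09, adjusted p = 2.76e-05) and rose in OGD/R against OGD (1.11, SE 0.09, adjusted p = 9.49e-07). NFKBIZ, a nuclear NF-kB cofactor induced by IL-1, averaged 15.8 ± 3.31 FPKM in OGD/R, 2.23 ± 0.239 FPKM in OGD and 4.69 ± 0.912 FPKM in control. It had the largest difference of the named genes in OGD/R against OGD (2.36, SE 0.17, adjusted p = 3.12e-07). NFKBIZ overlaps NXPE3 on the genome. NXPE3 averaged 6.61 ± 0.432 FPKM in OGD/R, 3.88 ± 0.649 FPKM in OGD and 8.35 ± 1.47 FPKM in control. The part of NXPE3 reads in the NFKBIZ values was not tested.

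The cytokine gene LIF averaged 18.7 ± 3.77 FPKM in OGD/R, 4.48 ± 0.355 FPKM in OGD and 4.40 ± 0.848 FPKM in control, and rose in both OGD/R comparisons (adjusted p = 1.51e-06 against OGD and 1.40e-05 against control). The chemokine gene CXCL2 averaged 18.2 ± 2.26 FPKM in OGD/R, 6.30 ± 0.605 FPKM in OGD and 7.85 ± 0.470 FPKM in control and rose likewise (adjusted p = 1.28e-06 and 5.01e-05). CXCL1, a related chemokine, rose in OGD/R against OGD (log2 difference 1.20, adjusted p = 1.12e-05). ZC3H12A, an RNase that degrades cytokine messages, rose in both (adjusted p = 1.45e-05 and 0.000453). The chemokine CCL2, in contrast, fell in OGD against control (38.0 ± 4.08 FPKM in OGD, 74.4 ± 5.17 FPKM in control, log2 difference -0.95, adjusted p = 2.71e-05). The growth factor gene CSF2 rose in OGD against control (12.8 ± 0.972 FPKM in OGD, 7.84 ± 2.29 FPKM in control, log2 difference 0.67, adjusted p = 0.00371), a call lost with the length trend removed (adjusted p = 0.106). CSF3, also a growth factor, rose in OGD/R against control (2.46 ± 0.619 FPKM in OGD/R, 0.369 ± 0.193 FPKM in control, adjusted p = 7.13e-05).

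**Figure D4:**
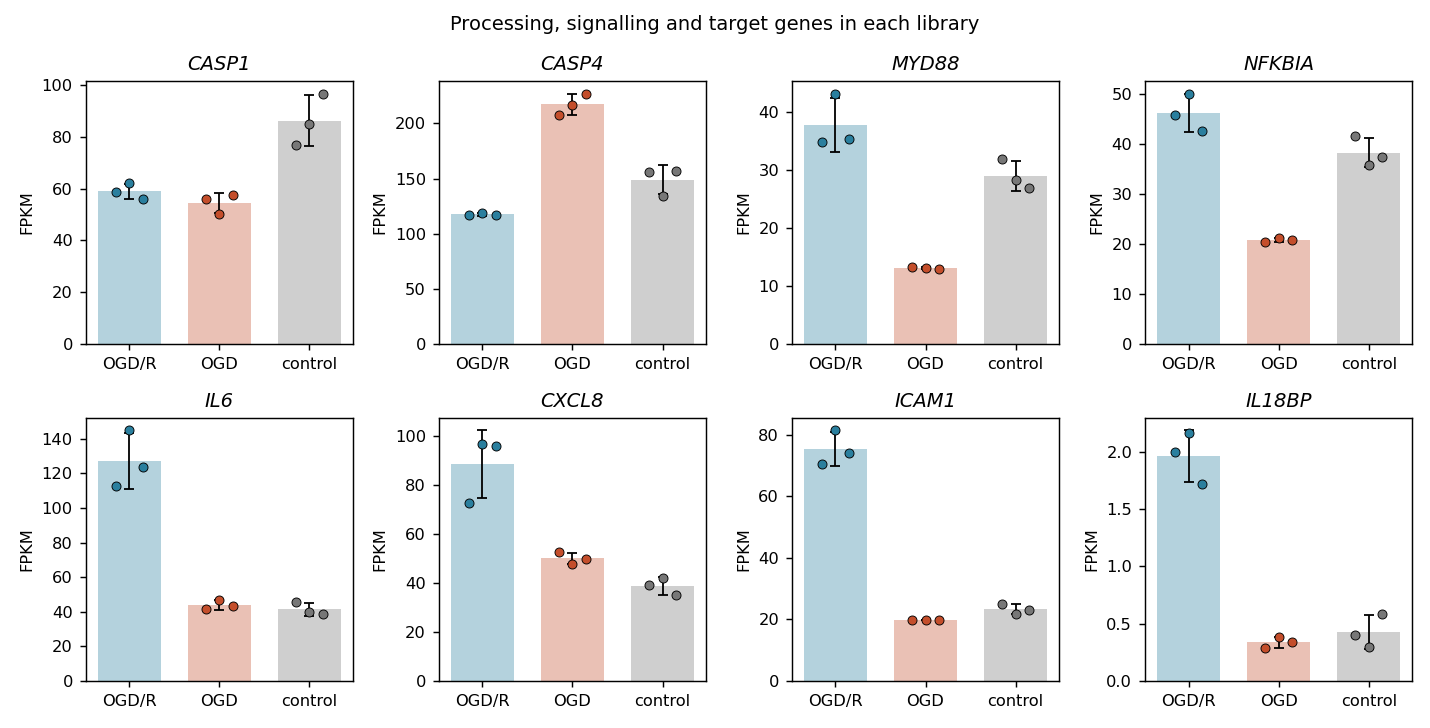
FPKM (y axis, from 0) of 8 processing, signalling and target genes in each library; bars are means of 3 libraries, error bars 1 SD and points single libraries. CASP4 is highest in OGD (208 to 227 FPKM), MYD88 and NFKBIA are lowest there, and IL6, CXCL8, ICAM1 and IL18BP are highest in OGD/R.

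IL1B is best known from myeloid cells, so their markers were read in the same libraries. Of 10 leukocyte and microglia genes listed, all were in the table and 7 stayed below 1 FPKM in all 9 libraries. PTPRC, the pan-leukocyte antigen CD45, reached at most 0.10 FPKM, ITGAM 0.0106 FPKM and SPI1 0.224 FPKM. CD14, in contrast, read 1.77 to 2.55 FPKM in OGD/R, 0.653 to 0.767 FPKM in OGD and 0.909 to 1.20 FPKM in control. FCER1G reached at most 1.52 FPKM, in OGD. The summed level of the list was 28.4 to 30.4 FPKM in OGD/R, 22.9 to 23.1 FPKM in OGD and 18.2 to 22.4 FPKM in control, and CD68, which many cell types express, accounted for 25.6 to 27.2, 20.6 to 21.6 and 17.1 to 20.6 FPKM of it. Fibroblast and pericyte genes summed to 63.3 to 80.9 FPKM in OGD/R, 15.6 to 15.7 FPKM in OGD and 28.1 to 37.9 FPKM in control. Epithelial genes summed to 238 to 257 FPKM in OGD/R, 130.1 to 139 FPKM in OGD and 166 to 201 FPKM in control, nearly all of it KRT18. Whether these sums bear on the differences of the 5 genes was not tested.

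The genes whose profile was most like each of the 5 were taken by the root mean square difference of log2(FPKM + 1), centred on each gene's mean over the 9 libraries. For IL1B these were SERPINB2 (0.293 log2 units), TAGLN (0.297) and HSP90B1 (0.326). SERPINB2, a plasminogen activator inhibitor, averaged 1.04 ± 0.132 FPKM in OGD/R, 3.0 ± 0.560 FPKM in OGD and 0.112 ± 0.0974 FPKM in control. HSP90B1, an ER chaperone, averaged 443 ± 34.4 FPKM in OGD/R, 955 ± 60.5 FPKM in OGD and 255 ± 49.4 FPKM in control. For IL1A they were RND3 (0.115), DKK1 (0.140) and ADAMTS12 (0.157). For IL1R1 they were SNTB2 (0.045), EGLN1 (0.078) and NPTN (0.080). EGLN1, an oxygen-sensing hydroxylase, averaged 19.2 ± 1.99 FPKM in OGD/R, 8.19 ± 0.574 FPKM in OGD and 17.5 ± 0.793 FPKM in control. For IL18 they were CTNNBIP1 (0.075), TIMM10B (0.077) and PSMC1 (0.083), and for IL1RAP they were RBM6 (0.102), UFM1 (0.113) and WDR73 (0.113). The nearest genes were farther from IL1B than from the other 4. The distance is not scaled to the size of a gene's changes, and IL1B had the largest difference of the 5 in OGD against control. Nothing is therefore read from this order. SERPINB2 was low in control (0.112 FPKM), where log2(FPKM + 1) understates changes.

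Genes within 500000 bases were read as well. Beside IL1A and IL1B lie the IL-1 family genes IL37 (at most 0.542 FPKM), IL36G (at most 0.288 FPKM) and IL1RN, none of which passed the filter. CHCHD5, a mitochondrial protein gene on the other side, averaged 13.0 FPKM in OGD/R, 35 FPKM in OGD and 15.3 FPKM in control. CKAP2L, a mitotic spindle gene and the nearest tested gene to IL1A, averaged 22.0 FPKM in OGD/R, 17.4 FPKM in OGD and 25.9 FPKM in control. Both were chosen after their values were seen. Beside IL1R1 the table listed MAP4K4, IL1R2, IL1RL1 and IL18R1, and of these only MAP4K4 passed the filter (27.0 FPKM in OGD/R, 16.5 FPKM in OGD and 17.6 FPKM in control).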

How the data were processed

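The 9 hCMEC/D3 libraries, 3 per group, were made with an mRNA-Seq kit (SMARTER) per the labels' protocols. Groups and replicate numbers came from sample titles. The authors deposited 1 FPKM value per gene and library. Per the submitters' processing notes the build was GRCh38, while for aligner, quantifier, annotation and strand the sources used here give nothing. FPKM values summed to between 442696 and 605818 per library and read depth is unknown.

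The filter kept 10818 genes that reached 1 FPKM in 3 or more libraries, and limma 3.58.1 (R 4.3.3) was run on log2(FPKM + 1). All 9 libraries entered 1 fit of 3 groups (eBayes with trend, 2-sided, Benjamini-Hochberg adjustment over all genes tested, threshold 0.05), and every adjusted p comes from it or from the alternative named. The script was tested on simulated data. Without separate cultures stated, p-values measure the spread between these libraries only, which may be technical. Member genes, lists and motifs were chosen with earlier results of these data known, and counts over lists carry no test. Other genes named are the 10 largest called differences per comparison whose higher group mean reached 2 FPKM, a fixed panel of ligands, sensors, adaptors and targets, and the 3 genes most like each member. Coordinates and overlaps came from RefSeq GRCh38.p14, and transcript lengths (longest transcript, matched for 99.6% of genes) from GENCODE. Promoter windows were matched by symbol for 4 of 5 members. Figures were drawn with matplotlib 3.10.9.

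Alternatives were a pseudocount of 0.1, no filter, median-of-ratios scaling, quantile normalization, removal of the transcript length trend, a robust prior, the replicate number as a block, and leaving out each library.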

Additional observations from a re-analysis of the deposited data

How the results depend on the processing

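The differences of the 5 genes, the counts of genes called and 33 other named genes were recomputed under 16 alternatives. Sign changed under an alternative for IL18 (-0.08 to 0.25) and IL1RAP (-0.04 to 0.62) in OGD against control. It also changed for IL1RAP in OGD/R against OGD (-0.39 to 0.36) and IL1R1 in OGD/R against control (-0.10 to 0.24). The other differences of the 5 genes kept their sign. On the log2 scale, a pseudocount of 0.1 gave 1.85 for IL1A and -1.25 for IL1R1 in OGD against control, -1.52 for IL1A, -0.40 for IL18 and 1.38 for IL1R1 in OGD/R against OGD, and -0.48 for IL18 in OGD/R against control. Median-of-ratios scaling gave 1.77 for IL1A, 2.71 for IL1B, 0.16 for IL18, -0.69 for IL1R1 and 0.58 for IL1RAP in OGD against control. It gave -1.62 for IL1A, -1.36 for IL1B, -0.43 for IL18, 0.71 for IL1R1 and -0.22 for IL1RAP in OGD/R against OGD, and 1.35 for IL1B in OGD/R against control. Quantile normalization gave 1.81 for IL1A, 0.25 for IL18 and -0.59 for IL1R1 in OGD against control. It gave -1.76 for IL1A, -0.74 for IL1B, -0.65 for IL18, 0.49 for IL1R1 and -0.19 for IL1RAP in OGD/R against OGD, and 0.05 for IL1A, 1.57 for IL1B, -0.40 for IL18 and -0.09 for IL1R1 in OGD/R against control. Removing the transcript length trend gave 1.59 for IL1A, -0.56 for IL1R1 and 0.62 for IL1RAP in OGD against control, -0.73 for IL1B, 0.46 for IL1R1 and -0.39 for IL1RAP in OGD/R against OGD, and 1.60 for IL1B, -0.11 for IL18 and -0.10 for IL1R1 in OGD/R against control. The cause of these shifts was not tested.

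All genes called higher and lower split 1218 and 5054 in OGD against control, and 2930 and 2422 under median-of-ratios scaling, 2166 and 2427 under quantile normalization and 2250 and 2516 with the length trend removed. In OGD/R against OGD the split was 5770 and 1878, and 3432 and 3783, 3399 and 3386, and 3292 and 3173 under the same alternatives. In OGD/R against control it was 2673 and 1787, and 2342 and 2550, 2394 and 2504, and 2291 and 2497.

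Direction turned for 21 results of the named genes, 15 of which were not called on either side of the turn. The other 6, of 5 genes, were called on one side. In OGD against control NLRP1 was higher under median-of-ratios scaling (adjusted p = 0.0454), quantile normalization (adjusted p = 0.0169) and without the length trend (adjusted p = 0.0130). In OGD/R against OGD, median-of-ratios scaling and removal of the length trend turned GSDMD (adjusted p = 0.0367 and 0.0468), IRAK1 (adjusted p = 0.224 and 0.223) and NEK7 (adjusted p = 0.376 and 0.197) to lower. CASP1 was lower under median-of-ratios scaling (adjusted p = 0.0162) and NLRP1 without the length trend (adjusted p = 0.792). All adjusted p-values are from limma.

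With 1 library left out, 5157 to 6698 genes were called in OGD against control, 6918 to 7906 in OGD/R against OGD and 3424 to 4587 in OGD/R against control, and 24 to 30, 35 to 41 and 25 to 34 of the pathway genes. In the same order of comparisons the difference of IL1A was 1.38 to 1.51, -1.29 to -1.13 and 0.15 to 0.33, that of IL1B 2.27 to 2.38, -0.92 to -0.85 and 1.40 to 1.5, and that of IL18 -0.08 to -0.02, -0.27 to -0.12 and -0.32 to -0.16. For IL1R1 it was -1.04 to -0.92, 0.99 to 1.20 and 0.03 to 0.24, and for IL1RAP -0.04 to 0.36, 0.10 to 0.36 and 0.20 to 0.60. With the replicate number as a block 5956, 7452 and 4128 of all 10818 genes were called, and 27, 40 and 28 of the 56 pathway genes. Deviations of same-numbered libraries from their group means correlated at -0.2 to 0.148. The labels describe no pairing, and these values cannot tell whether such libraries shared a culture or a preparation. Read depth is unknown, and 3 libraries a group limit precision.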
